A study of Heterocephalus glaber with 3 samples.

Results

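Fos, EGR1, ZFP36 and IER2 are 4 immediate early genes that are also known to rise when tissue is dissociated into single cells. They were taken by symbol, case ignored, from the feature list of 3 single-cell libraries of naked mole-rat lung tumours, where 4 of 23189 features carry these symbols, each on a single feature. The level of each gene was described across the cell lineages of the tumours, against the depth of the cells and against their share of mitochondrial counts.

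Immediate early genes need no newly made protein to be transcribed. Signals that reach serum response factor, the ternary complex factors and other factors already present in the cell switch them on within minutes, and most of their mRNAs are short-lived. Fos is the partner of Jun proteins in the transcription factor AP-1, EGR1 is a zinc-finger transcription factor of the early growth response family, ZFP36 (tristetraprolin) binds AU-rich elements and drives the decay of cytokine mRNAs, and IER2 is a nuclear protein of the immediate early response family. In tissues of other animals these genes are switched on by growth factors, by inflammatory signals and by enzymatic dissociation, so that handling and tissue biology can both raise them.

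The tumours came from 3 naked mole-rats (Heterocephalus glaber) of a single group, numbered as replicates 1 to 3, and each animal gave 1 library. Each animal had been infected with an adenovirus that carries CRISPR reagents, the labelled modification includes an Eml4-alk inversion and loss of Rb, and the lungs were taken at week 15. Tumours were separated by hand from normal lung, dissociated and captured with 10x Genomics 3' chemistry. The labels used here give neither the animals' age nor the cell type that took up the virus, and name no untreated animal, no normal lung and no sample that was handled in another way, so the part of dissociation in any level below was not tested and every comparison is between cells of the same animals.

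The libraries held 9500 to 10000 barcodes and 76093932 to 91949365 UMIs each, and 7770 to 8883 cells per animal were kept, 24580 in all. The libraries shared 21 to 31 barcodes in pairs, 0 of them with equal UMI totals. Replicate 3 was deeper, with a median of 8075.5 UMIs per kept cell against 4971 and 5178. Clustering without these 4 genes and without the other genes listed for this work gave 36 clusters, of which 27 were named from markers and joined into 9 classes. The unnamed clusters held 2639 cells, 346, 811 and 1482 of them in replicates 1, 2 and 3. They were left out of the comparisons of classes and of the divisions by depth and mitochondrial share. Unnamed cluster 5, which scored highest for macrophage markers, held 217, 96 and 1237 cells of replicates 1, 2 and 3. The class with fibroblast or mural markers is called fibroblast-like below. Of 60 measured markers of these classes, 56 were highest in their own class, the exceptions being CD14 (highest in neutrophil-like cells) and the dendritic markers CCR7, ZBTB46 and FSCN1. The clusters were named from markers in the same counts, so this count is no independent check of the names. It also leaves out the unnamed clusters. The neutrophil markers MMP8 and MMP9 were among the leading genes of unnamed clusters 5 and 23. Epithelial markers of lung were present, with SFTPC and SCGB3A2 leading 1 epithelial-like cluster each, in a class of 644 cells. The classes differed widely in depth, from a median of 1523 UMIs in neutrophil-like cells to 14224 in plasma-like cells, and in mitochondrial share, from a median of 1.57% in neutrophil-like to 7.94% in B-like cells.

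All 4 genes were detected, EGR1 in the fewest cells. In kept cells Fos (ENSHGLG00000009642) gave 166243 UMIs and was seen in 76.7% of cells, IER2 (ENSHGLG00000050933) gave 81880 UMIs and was seen in 77.6%, ZFP36 (ENSHGLG00000007955) gave 27749 UMIs and was seen in 47.7%, and EGR1 (ENSHGLG00000048168) gave 9741 UMIs and was seen in 22.3%. Levels are given below as CPM, the gene's share of all UMIs in the summed raw counts of a class in an animal. These are values per UMI total and, as 3' counts, are not divided by gene length, so they are compared between cells for 1 gene and not between genes.

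Fos was highest in neutrophil-like cells, at 4063, 5073 and 1258 CPM in replicates 1, 2 and 3 (3465 ± 1977, SD, n = 3). The neutrophil-like level exceeded every other class within each animal, although in replicate 3 it was much lower than in the other animals. Monocyte or macrophage-like cells followed at 1080, 1308 and 636 CPM, then B-like cells at 1075, 1106 and 543 CPM and dendritic-like cells at 630, 691 and 1101 CPM. Replicate 3 was the lowest animal in 8 of 9 classes for Fos, and dendritic-like cells were the exception. Fibroblast-like cells stood at 732 ± 83.6 CPM, endothelial-like cells at 549 ± 334 and epithelial-like cells at 492 ± 164. T-like cells were low and even across animals, at 258, 264 and 245 CPM, and plasma-like cells had 204 ± 87.7 CPM, so that the highest class mean was 17.01 times the lowest. Neighbours in this order were taken to differ where the within-animal log2 difference had the same sign in 3 of 3 animals and its mean exceeded its SD, a description rather than a test. By that measure 3 of 8 neighbouring pairs differed: neutrophil-like above monocyte or macrophage-like (log2 difference 1.62 ± 0.55), monocyte or macrophage-like above B-like (0.16 ± 0.13) and epithelial-like above T-like cells (0.90 ± 0.44). Among the run from B-like down to epithelial-like cells, neighbours did not differ beyond the spread of the animals.

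**Figure D1:**
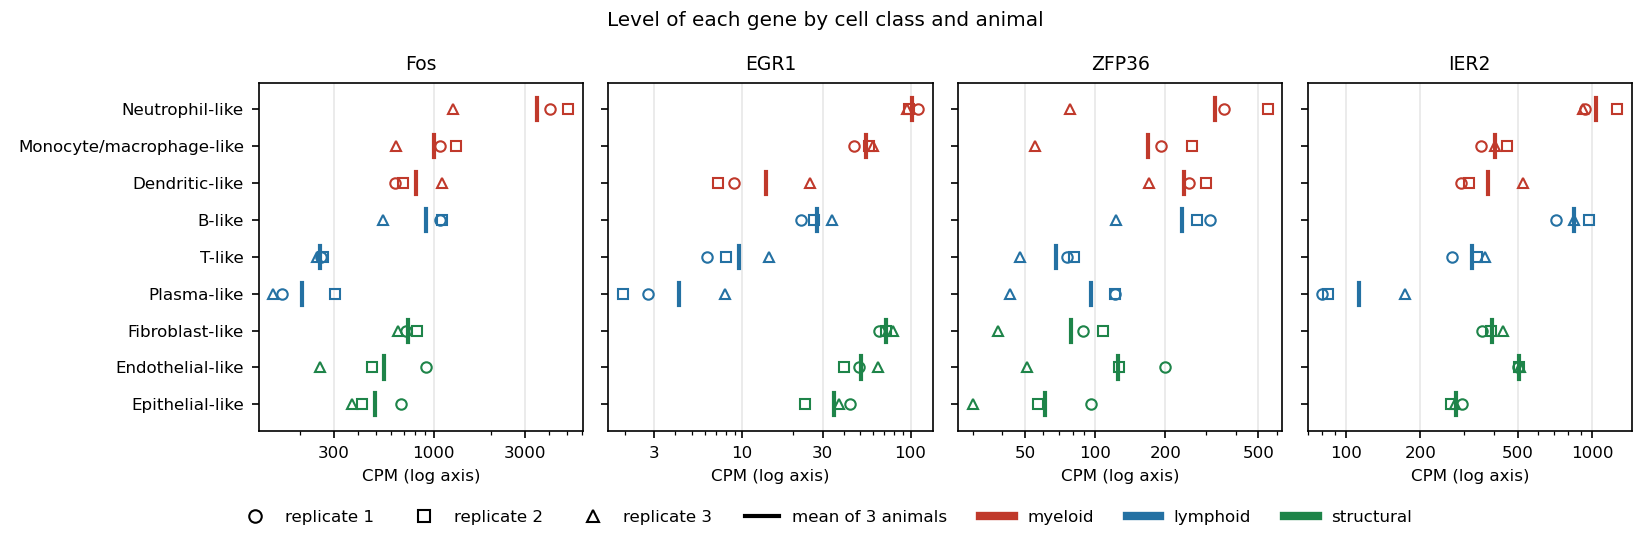
Level of each gene in CPM of summed counts (log axis) in each of 9 cell classes, with 1 symbol per animal, a bar at the mean of the 3 animals and colours for the lineage. Neutrophil-like cells have the highest mean for each gene, and the triangles of replicate 3 are the lowest of their class for ZFP36 in 9 of 9 classes.

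EGR1 also had its highest mean in neutrophil-like cells, but its order was otherwise unlike that of Fos. Neutrophil-like cells had 111, 98.4 and 95.7 CPM (102 ± 7.93), with little spread between animals. Fibroblast-like cells came next at 65.4, 71.8 and 78.2 CPM, above monocyte or macrophage-like cells at 45.8, 56.8 and 59.8 CPM in 3 of 3 animals (log2 difference 0.41 ± 0.09). Endothelial-like cells had 51.1 ± 12.02 CPM and epithelial-like cells 35.0 ± 10.2. The lymphoid classes were low, with 27.8 ± 5.96 CPM in B-like, 9.56 ± 4.38 in T-like and 4.21 ± 3.25 in plasma-like cells. Dendritic-like cells, which for Fos lay among the upper classes, had only 13.8 ± 10.1 CPM, from 8.92, 7.18 and 25.4 CPM. Of 8 neighbouring pairs 5 differed by the same measure, and the highest mean was 24.1 times the lowest. The low end rests on few counts, such as 12 EGR1 UMIs in the plasma-like cells of replicate 2.

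ZFP36 had the smallest range over classes. Neutrophil-like cells had 356, 548 and 78.3 CPM, dendritic-like cells 253, 299 and 171 CPM, and B-like cells 312, 272 and 122 CPM. Neighbours among these 3 classes did not differ beyond the spread, while B-like cells lay above monocyte or macrophage-like cells (0.64 ± 0.54). With cells thinned to 2000 UMIs the dendritic-like mean was the highest (270 CPM against 236 in neutrophil-like cells). Thinning left out 1065 of 1486 neutrophil-like cells, those under 2000 UMIs, so the thinned mean describes the deeper cells of that class. Over all cells, neutrophil-like cluster 7 (median 1477.5 UMIs) had 466 CPM of ZFP36 and cluster 25 (median 3322 UMIs) 79.3 CPM. Monocyte or macrophage-like cells had 191, 260 and 55.3 CPM and endothelial-like cells 200.2, 126 and 51.1 CPM. Plasma-like (95.6 ± 45.3), fibroblast-like (78.5 ± 36.1), T-like (68.3 ± 18.1) and epithelial-like cells (60.8 ± 33.1) were at the lower end. Only 2 of 8 neighbouring pairs differed, and the highest mean was 5.39 times the lowest. ZFP36 was lowest in replicate 3 in 9 of 9 classes, at 0.173 to 0.620 times the mean of replicates 1 and 2, with a median of 0.389. For EGR1 the same ratio had a median of 1.39 and for IER2 of 1.02, so the lower values of replicate 3 were not shared by all 4 genes. With 1 library per animal, the animal, its handling and its depth cannot be told apart here.

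IER2 was highest in neutrophil-like cells at 932, 1266 and 919 CPM (1039 ± 197) and next in B-like cells at 711, 969 and 842 CPM, and both steps in the order held in 3 of 3 animals. Endothelial-like cells had nearly the same level in each animal, at 499, 504 and 511 CPM. Monocyte or macrophage-like (401 ± 48.7), fibroblast-like (393 ± 38.0), dendritic-like (378 ± 127), T-like (325 ± 50.6) and epithelial-like cells (279 ± 14.3) formed a run of neighbours that did not differ beyond their spread. Plasma-like cells stood apart at the bottom with 80.0, 84.7 and 174 CPM (113 ± 52.8), below epithelial-like cells by a log2 difference of 1.40 ± 0.64. The highest mean was 9.21 times the lowest. Neutrophil-like cells, which lead all 4 orders, were also the shallowest class and the class of lowest mitochondrial share, and plasma-like cells, lowest for 3 of the 4 genes, were the deepest. The part of depth in these orders is described below.

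Across the 27 combinations of class and animal, centred within each animal, Fos varied most closely with IER2 (Pearson r = 0.80 on log2(CPM + 1)), and EGR1 with ZFP36 least (r = 0.24). These points share libraries and depth, and the values are descriptions. The gene most like the 4 members by mean correlation over the same points was DUSP1 (mean r = 0.81), the phosphatase that switches off MAP kinases and itself an immediate early gene. SLC2A6, NFKBIE and NR4A1 followed (0.78 each), then CTBS, PPP1R3E, TFEB and ICAM4 (0.77 each) and APH1B and RIPK2 (0.76 each). The same ranking among the clusters of 1 class gave other names: 0 of these 10 genes were among the 10 most alike over 15 points of monocyte or macrophage-like clusters, and 0 over 9 points of fibroblast-like clusters. DUSP1 kept mean correlations of 0.95 and 0.81 there, and NR4A1, an orphan nuclear receptor induced as an immediate early gene, 0.96 and 0.98.

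Within classes the 4 genes also varied from cluster to cluster. Among monocyte or macrophage-like clusters, cluster 10, led by CFD, SORL1 and KCNJ2, had 2830, 4579 and 2098 CPM of Fos in replicates 1, 2 and 3. Cluster 6, led by TBXAS1, CYP7A1 and GPNMB, had 583, 646 and 506 CPM, below cluster 10 in each animal. The same 2 clusters had 658 and 66.0 CPM of ZFP36, 147 and 44.7 CPM of EGR1, and 1203 and 311 CPM of IER2 over all their cells. They differed in depth as well, with median totals of 4167 and 15072 UMIs, and in median mitochondrial share, at 4.24% and 8.91%, whose part in the difference was not tested. Of the neutrophil-like clusters, cluster 7, led by IL1R2 and ACOD1, had 5335, 5454 and 1881 CPM of Fos, against 764, 1152 and 457 CPM in cluster 25, led by LTF, FCN1 and CRISP3. LTF encodes lactoferrin, a protein of neutrophil granules. For EGR1 these neutrophil-like clusters were closer, at 109 and 85.8 CPM over all cells.

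T-like clusters ranged from 516 CPM of Fos in cluster 0 (CD40LG, IL7R, median 2245 UMIs) to 99.2 CPM in cluster 15 (NKG7, EOMES, PRF1, median 10359 UMIs). Fibroblast-like clusters 11 (A2m, FIBIN, MFAP4) and 16 (CCL19, DCN, MGP) had 1467 and 1427 CPM of Fos. Their EGR1 levels, 141 and 163 CPM, were with the 147 CPM of cluster 10 the highest of the 34 clusters of at least 50 cells. Cluster 4 (MMP3, IGF2) had 539 CPM of Fos and 51.2 CPM of EGR1. Dendritic-like clusters 12 and 17 had 7.93 and 5.52 CPM of EGR1 beside 763 and 598 CPM of Fos, whereas cluster 18 (CCL17, CD207, CCL22) had 30.5 CPM of EGR1 and 942 CPM of Fos. Of the unnamed clusters, cluster 5 (RETN, MMP8, 1550 cells) had 972 CPM of Fos and 68.9 CPM of EGR1, and cluster 27, whose leading genes mixed those of neutrophil-like and T-like clusters, had 2192 CPM of Fos. Clusters are groups of cells drawn from the same counts, so these values describe them and were not tested.

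**Figure D2:**
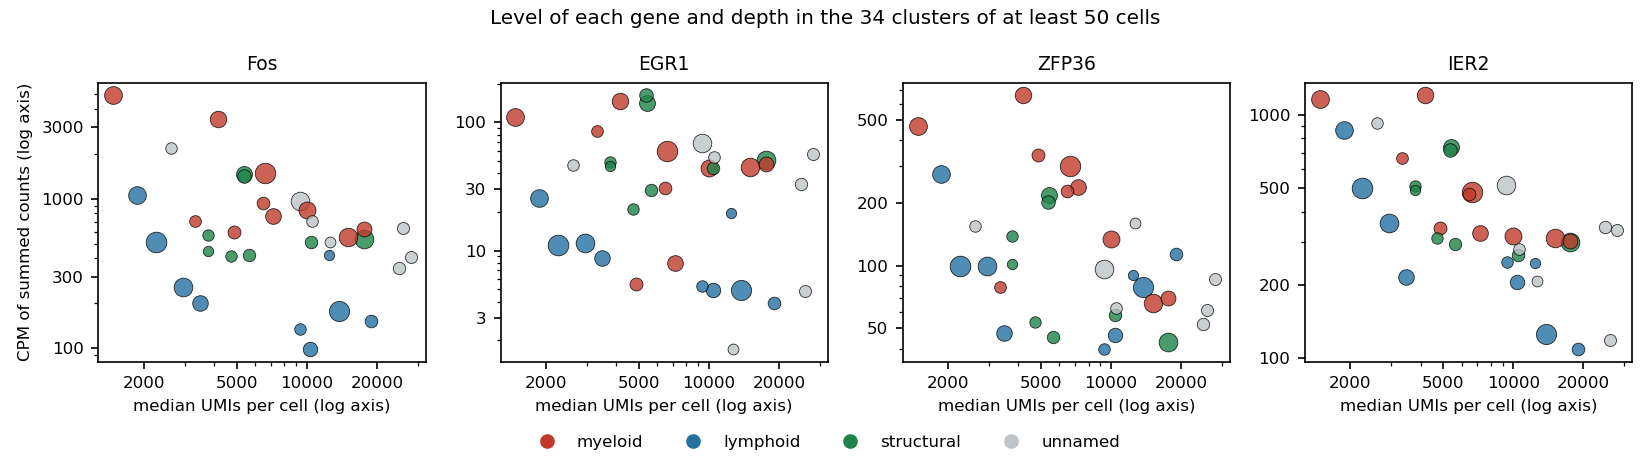
Each point is 1 of the 34 clusters with at least 50 cells, with its median UMIs per cell (log axis) against the level of each gene in CPM of its summed counts (log axis), coloured by lineage, larger points holding more cells. IER2 falls most steadily with depth (Spearman rho −0.68) and EGR1 least (−0.23).

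Over the 34 clusters of at least 50 cells the level fell with median UMIs per cell, with Spearman rho of −0.68 for IER2, −0.44 for ZFP36, −0.38 for Fos and −0.23 for EGR1. The correlations with median mitochondrial share were weaker, from −0.29 for ZFP36 to −0.04 for Fos. Clusters share libraries, and CPM is itself a share of the UMI total, so no test was made of these relations.

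Because detection rises with depth, the share of cells with at least 1 UMI was compared after every cell had been thinned to 2000 UMIs. This left out 1065 of 1486 neutrophil-like, 739 of 1277 B-like and 1195 of 5300 T-like cells, and at most 15.6% of any other class. The thinned shares of neutrophil-like, B-like and T-like cells therefore describe the deeper cells of these classes. At equal depth Fos was detected in 80.0% ± 6.13 (SD, n = 3) of neutrophil-like, 72.5% ± 7.48 of monocyte or macrophage-like, 61.9% ± 10.9 of dendritic-like, 58.2% ± 4.81 of fibroblast-like and 26.1% ± 6.46 of plasma-like cells. Without thinning the plasma-like share was 69.1%, at a median of 14224 UMIs, and the neutrophil-like share 89.1%, at 1523. EGR1 was detected in 15.8% ± 8.98 of neutrophil-like and 14.7% ± 1.27 of fibroblast-like cells, but in 2.13% ± 0.247 of T-like and 0.819% ± 0.673 of plasma-like cells. The neutrophil-like share of EGR1 was uneven, at 20.8%, 5.43% and 21.2% in replicates 1, 2 and 3. ZFP36 was detected in 37.7% ± 5.16 of dendritic-like, 33.3% ± 7.13 of B-like and 10.7% ± 2.98 of epithelial-like cells. IER2 was detected in 76.3% ± 10.7 of neutrophil-like, 66.7% ± 5.62 of B-like and 19.99% ± 8.49 of plasma-like cells. No class could be taken to lack these genes, so no background share was measured, and the part of free RNA in the low shares was not tested.

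Summed over classes, the genes were found in the same cells more often than their shares alone give. At 2000 UMIs, 73.2% ± 10.1 of neutrophil-like cells had 2 or more of the 4 genes, against 56.2% ± 7.99 of monocyte or macrophage-like, 56.2% ± 7.05 of B-like, 45.7% ± 3.59 of fibroblast-like, 26.4% ± 2.86 of T-like and 11.4% ± 1.16 of plasma-like cells. All 4 were seen together in 4.11% ± 2.19 of monocyte or macrophage-like and 3.28% ± 1.54 of fibroblast-like cells, and in 0.0260% ± 0.0451 of plasma-like cells. Within class and animal, the number of cells with both genes of a pair was 1.13 times the product of their shares for Fos with IER2 and 1.52 times for EGR1 with ZFP36. Summed over classes, the ratio was above 1 for 6 of 6 pairs in 3 of 3 animals, with the clusters of a class pooled. It was not above 1 in every class and animal. In neutrophil-like cells the ratios over the animals were 1.03 to 1.12. In their replicate 2, Fos with EGR1 had 0.944, Fos with IER2 0.985, EGR1 with IER2 0.932 and ZFP36 with IER2 0.983. Fos with ZFP36 (1.05) and EGR1 with ZFP36 (1.64) were above 1 there, and each pair with EGR1 rests on 4 cells. In replicate 3 EGR1 with ZFP36 had 0.985. In B-like cells EGR1 with ZFP36 had 0.989 over the animals. Monocyte or macrophage-like cells had 1.11 to 1.44 and fibroblast-like cells 1.19 to 1.91. The ratio cannot exceed 1 over the larger share of a pair, so it is held low where a gene is found in most cells. Its size is therefore not comparable between classes or between pairs. The EGR1 with ZFP36 ratios were 1.45, 1.49 and 1.71 by animal, while these genes had the lowest correlation over classes.

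The classes of each animal were compared in 1 edgeR quasi-likelihood fit over all genes, with the animal as block and p-values adjusted by Benjamini-Hochberg over all genes tested. Classes were built from the same counts, so genes that vary with the clusters were then tested between them and these p-values are not calibrated, although the 4 genes took no part in the clustering. The scaling mattered here: the fit used TMM factors, which place the median gene near 0, whereas scaling by library totals alone placed it at 0.33 for myeloid minus lymphoid, 0.73 for structural minus lymphoid and 0.40 for structural minus myeloid classes, on the log2 scale. The share of called genes that were higher accordingly went from 49.4% to 79.3%, from 49.9% to 88.2% and from 51.2% to 72.2%. Directions of single genes are therefore given under both scalings where these differ.

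Between myeloid and lymphoid classes 4 of 4 genes were called, all higher in the average of the myeloid classes (neutrophil-like, monocyte or macrophage-like and dendritic-like). T-like and plasma-like cells had lower mean CPM than each myeloid class for the 4 genes. B-like cells lay above dendritic-like cells for Fos, EGR1 and IER2, and above monocyte or macrophage-like cells for ZFP36 and IER2. Of 12933 genes tested, 50.2% were called. Fos differed by 1.98, 1.89 and 1.83 in log2 CPM in replicates 1, 2 and 3, and by 1.60 ± 0.21 (SE) in the fit (edgeR adjusted p = 5.4e-07). EGR1 differed by 2.12, 2.00 and 1.66, and by 1.60 ± 0.21 in the fit (edgeR adjusted p = 6.0e-07). ZFP36 and IER2 differed less, with log2 CPM differences of 0.85, 1.32 and 0.51 and of 0.88, 0.89 and 0.62, and fitted differences of 0.60 ± 0.17 and 0.39 ± 0.14 (edgeR adjusted p = 0.0039 and 0.028). The 3 animals had the same direction for each gene. The calls of ZFP36 and IER2 were lost with a minimum of 2000 UMIs per cell (0.27 and 0.22, edgeR adjusted p = 0.13 and 0.20), which removes most neutrophil-like cells, and without replicate 2 (0.32 and 0.30, adjusted p = 0.18 and 0.16), and that of IER2 also without replicate 1 (0.33, adjusted p = 0.22).

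Other genes were taken from 8 lists and not by how they moved. The lists cover AP-1, EGR and NR4A, other immediate early, mRNA decay, feedback, serum response, heat shock and ZFP36 target genes. Of these genes 29 of 50 were higher and 8 of 50 lower in myeloid classes, beside 24.8% higher and 25.4% lower over all genes. Their median log2 difference was 0.79 against −0.05 over all genes. Among AP-1 genes 5 of 7 were higher, led by MAFF at 3.46, FOSL1 at 2.37 and FOSL2 at 1.90. Among the EGR and NR4A genes 5 of 6 were higher, led by EGR2 at 2.41, NR4A3 at 2.06 and EGR4 at 1.89. Of the other immediate early genes 8 of 11 were higher, led by ID1 at 3.27, IER3 at 2.896 and ID2 at 2.34. The genes listed as feedback genes were DUSP1, DUSP2, DUSP5, SOCS3, NFKBIA, NFKBIZ, GADD45B and MCL1. Of these 6 of 8 were higher, led by SOCS3 at 2.21, NFKBIZ at 1.98 and NFKBIA at 1.91. Of the mRNA decay genes ZC3H12A stood at 1.38 and ZFP36L2 at −0.75, the latter not called with library totals alone. IL1B at 4.17, PTGS2 at 3.46 and TNF at 1.83, mRNAs that ZFP36 is known to destabilise, were higher in the same myeloid classes in which ZFP36 was higher. Of the serum response genes ELK3 (−1.16) was lower and MRTFA (0.89) higher, ELK4 (−0.60) being called with TMM alone. Of 6 heat shock genes 2 were lower with TMM, and with library totals alone 4 were higher.

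Between structural (epithelial-like, fibroblast-like and endothelial-like) and lymphoid classes 3 of 4 genes were called, beside 59.7% of all genes, but only 2 of these calls kept their direction under both scalings. EGR1 was higher in structural classes, by 2.62, 2.22 and 1.78 in log2 CPM and by 1.51 ± 0.23 in the fit (edgeR adjusted p = 3.1e-06). ZFP36 was lower, by −0.25, −0.59 and −0.69 in log2 CPM and by −1.22 ± 0.18 in the fit (edgeR adjusted p = 2.2e-06). The fitted difference of IER2 was −0.46 ± 0.15 (edgeR adjusted p = 0.0097), but its log2 CPM was higher in structural classes in each animal (0.59, 0.29 and 0.06), and with library totals alone the fit gave 0.30 (adjusted p = 0.027). Fos likewise stood at −0.05 ± 0.21 in the fit (edgeR adjusted p = 0.88) and at 0.68 with library totals alone (adjusted p = 0.0034). For Fos and IER2 no direction can thus be given between these lineages without choosing a scaling. Of the other listed genes 13 of 50 were higher and 23 lower with TMM, beside 29.8% higher and 29.9% lower over all genes. With library totals 27 were higher and 9 lower. CCN1 (4.81), ID1 (2.25) and ID3 (2.09) led the other immediate early genes, FOSL1 (2.46), MAFF (1.15) and BATF (−4.10) the AP-1 genes, and DUSP2 (−3.59), SOCS3 (1.72) and GADD45B (−1.31) the feedback genes, as fitted with TMM. Of the remaining lists NR4A3 (−1.19) and EGR2 (0.88), HSPB1 (1.66), DNAJB1 (−1.19) and HSPH1 (−0.91), and IL10 (−2.89), PTGS2 (1.96) and TNF (−1.56) were called with the same direction in 3 of 3 animals, NR4A3 and HSPH1 not with library totals alone. Of 6 heat shock genes 5 were lower with TMM, whereas 4 were higher with library totals.

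Between structural and myeloid classes 3 of 4 genes were called, all lower in the structural classes, beside 58.5% of all genes. Fos was lower by −0.88, −1.59 and −1.27 in log2 CPM and by −1.65 ± 0.21 in the fit (edgeR adjusted p = 2.9e-07). ZFP36 was lower by −1.10, −1.91 and −1.20, and by −1.82 ± 0.18 in the fit (edgeR adjusted p = 2.1e-09). IER2 was lower by −0.29, −0.60 and −0.55, and by −0.85 ± 0.15 in the fit (edgeR adjusted p = 2.2e-05). EGR1 was the exception, with log2 CPM differences of 0.51, 0.22 and 0.12, a fitted difference of −0.09 ± 0.21 (edgeR adjusted p = 0.76) and one of 0.27 with library totals alone. Of the other listed genes 5 of 50 were higher and 36 lower, beside 30% higher and 28.5% lower over all genes. Their median was −1.19 against 0.05 over all genes. All 6 EGR and NR4A genes (4 with library totals) were lower, led by NR4A3 at −3.26, NR4A1 at −2.09 and EGR2 at −1.53, and so were all 8 feedback genes (7 with library totals), led by DUSP2 at −2.48, NFKBIA at −2.13 and GADD45B at −1.96. The AP-1 genes BATF (−2.56), MAFF (−2.31) and FOSL2 (−1.78) were lower too, and of the other immediate early genes ID2 (−2.62) and IER5 (−2.37) were lower and CCN1 (3.9997) was higher. IL1B (−4.49), TNF (−3.39) and IL10 (−2.27) led the ZFP36 targets, and ZC3H12A (−1.49) was the called mRNA decay gene. HSPB1 (1.47), ELK3 (1.04) and ELK4 (0.70) were higher, and HSPH1 (−0.96) and MRTFA (−1.60) lower.

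**Figure D3:**
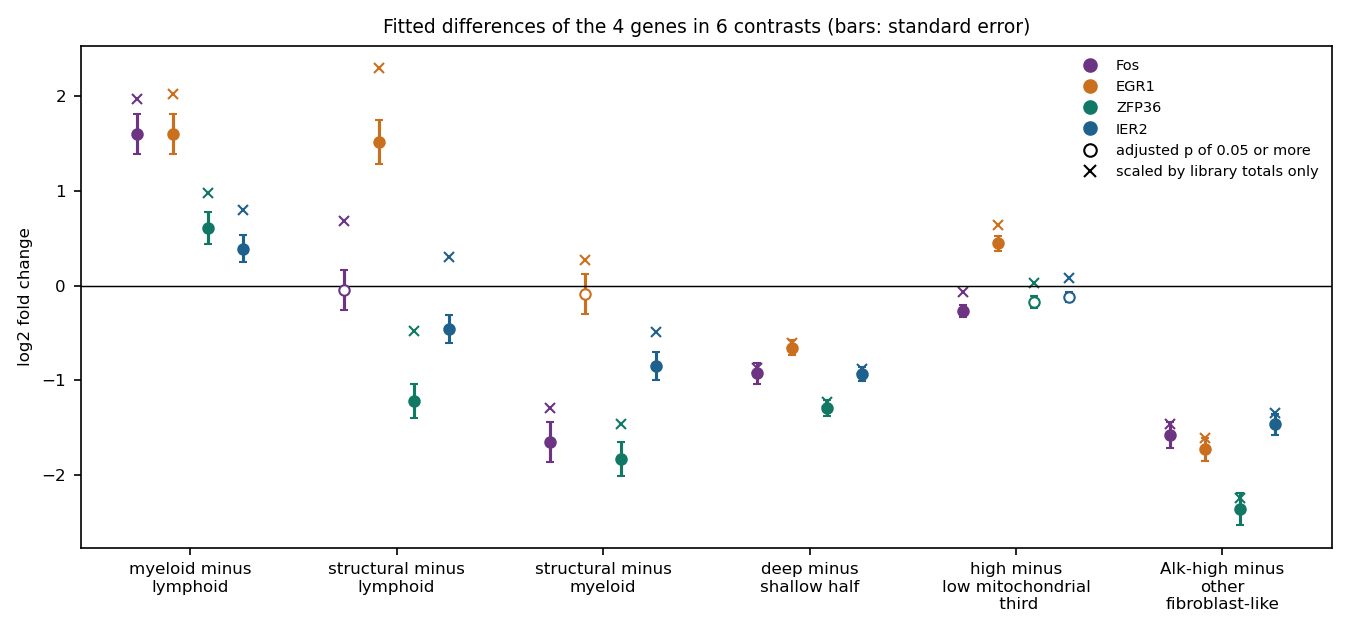
Fitted log2 fold change of each gene in 6 contrasts, with bars for the standard error, open circles where the adjusted p did not pass the threshold, and crosses for the same fit scaled by library totals alone. Crosses and circles lie on opposite sides of 0 for Fos and IER2 between structural and lymphoid classes, while for the Alk-high contrast both lie well below 0 for all 4 genes.

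To describe the relation with depth, the cells of each animal and class were divided at their median UMI total, and the deep and the shallow cells were each summed over classes, so that both sums hold the same number of cells of every class. Median totals were 2480.5, 2369 and 4402 UMIs in shallow and 9411, 9646 and 14415 UMIs in deep cells of replicates 1, 2 and 3. Over the pooled classes the median mitochondrial shares were alike (6.46%, 6.09% and 7.31% against 6.26%, 6.14% and 7.23%). In monocyte or macrophage-like cells they were 4.90%, 4.11% and 6.01% in shallow and 6.71%, 6.13% and 8.58% in deep cells. In T-like cells they were 8.33%, 8.22% and 9.86% in shallow and 7.34%, 6.65% and 8.47% in deep cells. The part of mitochondrial share in the depth differences of single classes was not tested. All 4 genes were called lower in deep cells, beside 44.2% of all genes called. Fos had 1164, 1688 and 633 CPM in shallow and 625, 736 and 444 CPM in deep cells, a fitted difference of −0.92 ± 0.11 (edgeR adjusted p = 0.0012). ZFP36 fell from 251, 389 and 81.1 CPM to 108, 139 and 40.9 CPM (−1.29 ± 0.08, edgeR adjusted p = 2.0e-04). IER2 fell from 461, 681 and 497 CPM to 264, 318 and 299 CPM (−0.93 ± 0.07, edgeR adjusted p = 3.3e-04). EGR1 fell least, from 53.3, 60.9 and 53.9 CPM to 34.01, 35.1 and 41.8 CPM (−0.66 ± 0.08, edgeR adjusted p = 0.0012). For EGR1 and IER2 the CPM of deep and shallow cells did not overlap over the animals, as for 25.4% of all genes, whereas for Fos and ZFP36 they did.

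Classes hold clusters of different depth, so the division was repeated within each cluster. There 30% of all genes were called, and 3 of the 4 genes. The difference shrank to −0.58 for ZFP36 (edgeR adjusted p = 2.9e-04), −0.46 for IER2 (adjusted p = 4.6e-04) and −0.30 for Fos (adjusted p = 0.0058). Over the pooled classes EGR1 was no longer called (−0.09, edgeR adjusted p = 0.31). Without the animal as block IER2 alone was called across classes (adjusted p = 0.035).

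The relation with depth differed between classes for each gene, by a test of the difference in 1 fit over classes (edgeR adjusted p = 6.2e-09 for Fos, 1.4e-07 for ZFP36, 1.5e-05 for IER2 and 7.1e-05 for EGR1, beside 26.1% of all genes called). In T-like cells Fos fell from 486 to 181 CPM (mean of 3 animals; log2 −1.45 ± 0.10, edgeR adjusted p = 2.9e-17, beside 44% of genes called), and in monocyte or macrophage-like cells from 1833 to 778 CPM (−1.13 ± 0.13, adjusted p = 3.8e-04, beside 36.9%). Within clusters these differences were −0.64 ± 0.06 and −0.32 ± 0.08, both still called. In monocyte or macrophage-like cells ZFP36 (−0.65 ± 0.08) and IER2 (−0.56 ± 0.07) were also still lower within clusters (edgeR adjusted p = 4.4e-05 and 3.1e-05, beside 24.6%). So was EGR1 there (−0.31 ± 0.08, edgeR adjusted p = 0.0064), its 1 call within clusters in 9 classes tested. In fibroblast-like cells all 4 genes were lower in deep cells (Fos −0.85, EGR1 −1.03, ZFP36 −1.47, IER2 −0.997, beside 33.7% of genes called), but within clusters Fos stood at −0.03 and EGR1 at −0.06, and the edgeR adjusted p ran from 0.067 for ZFP36 to 0.91 for Fos. Epithelial-like cells went the other way for Fos, from 324 to 527 CPM (0.87 ± 0.19, edgeR adjusted p = 0.015, higher in 3 of 3 animals, beside 9.82% of genes called), and kept 0.81 ± 0.19 within clusters (adjusted p = 0.044, beside 2.28%). In neutrophil-like cells Fos (−0.67 ± 0.18) and ZFP36 (−0.94 ± 0.19) were lower in deep cells (edgeR adjusted p = 0.0033 and 4.0e-05, beside 10.4% of genes called), and in dendritic-like cells ZFP36 (−0.53) and IER2 (−0.32) were, beside 15.8%. In B-like cells, a single cluster, Fos at −0.41 ± 0.09 was lower in 3 of 3 animals and did not pass (edgeR adjusted p = 0.066, beside 0.461% of genes called). In plasma-like cells, the deepest class, Fos and ZFP36 stood at −0.03 ± 0.10 and 0.02 ± 0.10, while IER2 was lower by −0.47 ± 0.09 (edgeR adjusted p = 0.014, beside 2.44% of genes called). Within clusters the calls of IER2 in plasma-like cells (−0.31, edgeR adjusted p = 0.41, beside 0.179% of genes called) and of Fos in neutrophil-like cells (−0.49, adjusted p = 0.11) were lost. ZFP36 was lower there in deep neutrophil-like cells by −0.63 ± 0.17 (edgeR adjusted p = 0.039, beside 4.31% of genes called), and in dendritic-like cells IER2 was lower by −0.45 ± 0.08 and ZFP36 by −0.40 ± 0.10 (adjusted p = 5.7e-04 and 0.011, beside 5.36%). The difference between classes was still called within clusters for Fos and ZFP36 (edgeR adjusted p = 1.1e-05 and 2.4e-04, beside 6.94% of genes), and not for IER2 and EGR1 (0.052 and 0.21).

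**Figure D4:**
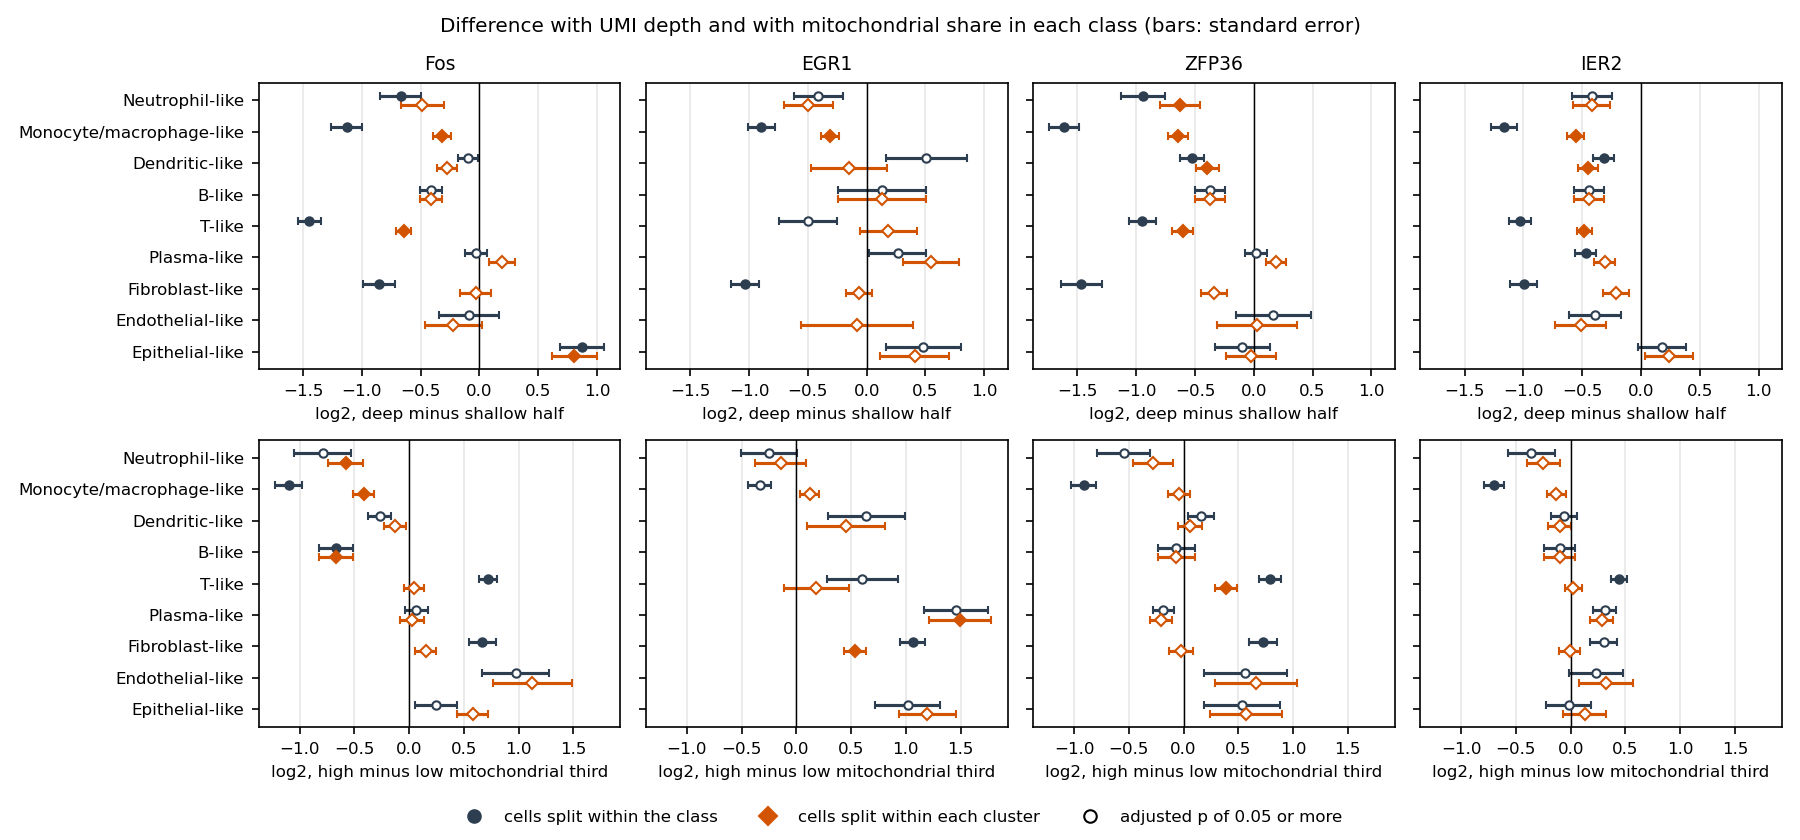
Log2 difference of each gene between deep and shallow cells (top) and between cells of high and low mitochondrial share (bottom) in each class, with bars for the standard error; circles divide the cells within the class, diamonds within each cluster, and open symbols did not pass the threshold. In fibroblast-like cells the depth differences of −0.85 to −1.47 move to between −0.03 and −0.34 within clusters. The mitochondrial differences within the class (circles) have opposite signs in monocyte or macrophage-like and T-like cells. Within clusters (diamonds) those of EGR1 are above 0 in both (0.12 and 0.18).

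Of the other listed genes 39 of 50 were lower in deep cells and 4 higher, beside 21.5% lower and 22.8% higher over all genes. Their median was −0.54 against −0.02 over all genes. Within clusters 33 were lower and 2 higher (median −0.28), beside 14.3% lower and 15.7% higher over all genes. All 11 other immediate early genes were lower, led by CSRNP1 at −1.01, ID1 at −0.91 and BTG2 at −0.89, as were all 8 feedback genes, led by DUSP2 at −1.25, GADD45B at −0.89 and SOCS3 at −0.88. EGR3 (−1.27), EGR2 (−1.03) and NR4A1 (−0.95) led the EGR and NR4A genes, FOSL2 (−0.75), JUN (−0.65) and FOSB (−0.52) the AP-1 genes, and ZFP36L1 (−1.08), ZFP36L2 (−0.82) and ZC3H12A (−0.70) the mRNA decay genes. IL1B (−1.20) and PTGS2 (−1.10) were lower and CSF2 (1.79) higher, HSPD1, a mitochondrial chaperone, was higher (0.90), HSPB1 (−0.54) and DNAJB1 (−0.53) were lower, and of the serum response genes MRTFA was lower (−0.42).

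For the relation with mitochondrial share, the third of cells of each animal and class with the highest share was compared with the third with the lowest, mitochondrial genes being left out of the sums. The median shares were 3.41%, 3.55% and 4.25% in the low and 10.9%, 10.2% and 11.998% in the high cells of replicates 1, 2 and 3, and the median totals 4831, 4850 and 6840 against 4126, 3436 and 7239 UMIs. Of the 4 genes 2 were called, in opposite directions, beside 29.8% of all genes. EGR1 was higher, with 30.0004, 37.0 and 35.9 CPM in the low and 51.0, 50.5 and 58.7 CPM in the high cells (0.44 ± 0.08, edgeR adjusted p = 0.0031). The EGR1 values did not overlap, as for 18.1% of all genes. The difference was 0.39 (edgeR adjusted p = 0.012) with high and low cells matched on UMIs, and 0.02 (adjusted p = 0.95) with cells thinned to 2000 UMIs. Fos was lower in the fit (−0.27 ± 0.07, edgeR adjusted p = 0.016), with 828, 1069 and 492 CPM in the low and 724, 955 and 544 CPM in the high cells, so that replicate 3 went the other way in CPM. The Fos call was lost with library totals alone (−0.07, adjusted p = 0.49), within clusters (−0.18, adjusted p = 0.12), with a mitochondrial limit of 10% (−0.09, adjusted p = 0.36), and without replicate 1 (−0.19, adjusted p = 0.11) or replicate 2 (−0.22, adjusted p = 0.11). It held with cells matched on UMIs (−0.25, adjusted p = 0.042), and with thinned cells the difference was larger (−0.66, adjusted p = 1.1e-04). ZFP36 at −0.17 ± 0.07 and IER2 at −0.12 ± 0.05 did not pass (edgeR adjusted p = 0.078 and 0.12). IER2 passed with thinned cells (−0.24, adjusted p = 0.015), and ZFP36 did not (−0.31, adjusted p = 0.063). Both were on the other side of 0 with library totals alone (0.02 and 0.08), a scaling that moved the median gene to 0.20 and the share of called genes that were higher from 45.4% to 86.0%.

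Single classes went in opposite directions, and the test of the difference between classes was called for each gene (edgeR adjusted p = 2.2e-06 for Fos, 1.1e-05 for ZFP36, 3.4e-05 for EGR1 and 0.0015 for IER2, beside 17.5% of all genes). High cells of the monocyte or macrophage-like class were deeper than low cells, with median totals of 7620, 10650 and 11761 against 6054, 6052 and 5357 UMIs. High T-like cells were shallower, with 2366, 2262 and 2698 against 2758, 3350 and 3526 UMIs. The part of depth in the differences of single classes was not tested. In monocyte or macrophage-like cells the high cells had less Fos, 807 against 1545 CPM (−1.10 ± 0.12, edgeR adjusted p = 7.8e-04, beside 22% of genes called), less ZFP36 (−0.91 ± 0.12) and less IER2 (−0.70 ± 0.09). In T-like cells they had more Fos, 356 against 212 CPM (0.72 ± 0.08, edgeR adjusted p = 9.7e-07, beside 32.6% of genes called), more ZFP36 (0.79 ± 0.10) and more IER2 (0.44 ± 0.07). In fibroblast-like cells they had more EGR1, 100.8 against 44.7 CPM (1.06 ± 0.11, edgeR adjusted p = 1.5e-04, beside 15.9% of genes called), more Fos (0.67 ± 0.13) and more ZFP36 (0.72 ± 0.13). In B-like cells Fos was lower by −0.67 ± 0.15 (edgeR adjusted p = 0.027, beside 0.288% of genes called). EGR1 was too low to be tested in B-like and endothelial-like cells. In the remaining classes no tested gene of the 4 passed: the lowest adjusted p was 0.054 for EGR1 in plasma-like cells (1.46 ± 0.29, beside 0.484% of genes called) and 0.081 for Fos in neutrophil-like cells (−0.79 ± 0.26, beside 2.78%). EGR1 in epithelial-like cells stood at 1.02 ± 0.30 (adjusted p = 0.13, beside 2.07%), Fos in dendritic-like cells at −0.27 ± 0.10 (0.11, beside 14%) and Fos in endothelial-like cells at 0.97 ± 0.31 (0.28, beside 0.431%), by edgeR in each class.

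Within clusters most of these differences were smaller. Fos in monocyte or macrophage-like cells stood at −0.42 ± 0.10 (edgeR adjusted p = 0.012, beside 22.5% of genes called) and in T-like cells at 0.04 ± 0.09 (adjusted p = 0.84, beside 7.34%). The calls of ZFP36 and IER2 in monocyte or macrophage-like cells were lost (−0.04 and −0.13, edgeR adjusted p = 0.79 and 0.29), as were those of Fos and ZFP36 in fibroblast-like cells (0.15 and −0.02, adjusted p = 0.39 and 0.93) and of IER2 in T-like cells (0.02, adjusted p = 0.89). ZFP36 in T-like cells was still called at 0.39 ± 0.10 (edgeR adjusted p = 0.023). EGR1 in fibroblast-like cells stood at 0.53 ± 0.10 (edgeR adjusted p = 0.011, beside 7.31%), and in plasma-like cells it was higher by 1.49 ± 0.29 (adjusted p = 0.027, beside 0.862%), from 2.09 to 8.47 CPM. Fos was lower in neutrophil-like cells by −0.58 ± 0.16 (edgeR adjusted p = 0.038, beside 4.52%), a direction that 2 of 3 animals had in CPM. In dendritic-like, endothelial-like and epithelial-like cells, where 1.81%, 1.08% and 0.17% of genes were called, the lowest adjusted p of the tested genes was 0.58, 0.23 and 0.13, EGR1 not being tested in endothelial-like cells. The difference between classes was still called for Fos and EGR1 (edgeR adjusted p = 0.0022 and 0.0068, beside 3.92% of genes), and not for ZFP36 and IER2 (0.12 and 0.64). Over all classes EGR1 remained higher within clusters at 0.37 (edgeR adjusted p = 0.011, 21.6% of genes called).

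Of the other listed genes 11 of 50 were higher and 14 lower in cells of high mitochondrial share, beside 13.5% higher and 16.3% lower over all genes. Their median was 0.02 against 0.00 over all genes, and 23 were higher and 6 lower with library totals alone. Heat shock genes, often listed beside the immediate early genes as signs of handling stress, gave 5 of 6 lower with TMM, led by HSPB1 at −0.83, DNAJA1 at −0.32 and HSP90AA1 at −0.30, and 1 of 6 with library totals. The EGR and NR4A genes EGR4 (0.37), NR4A3 (0.35) and NAB2 (0.32), an EGR co-repressor, were higher. FOSL1 (−1.10), BATF (−0.60) and FOSB (0.31) were the AP-1 genes called with the same direction in each animal, ID2 (0.60), CCN1 (0.57) and ID1 (−0.45) led the other immediate early genes, and DUSP5 (−0.53) and NFKBIZ (0.47) the feedback genes. ELK1 (0.56) and ZFP36L1 (0.34) were higher. IL1B (−0.53) was lower, and PTGS2 (−0.37) was lower with TMM alone.

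The kept cells exclude barcodes with 20% or more mitochondrial UMIs, so the levels were also taken over all barcodes, as CPM of non-mitochondrial UMIs. EGR1 had 32.2, 41.1 and 37.3 CPM in barcodes with under 5% mitochondrial UMIs in replicates 1, 2 and 3, and 105, 65.8 and 208 CPM in those with at least 20%. EGR1 was highest at 20% or more, of 4 ranges of mitochondrial share, in 3 of 3 animals, which held for none of Fos, ZFP36 and IER2. ZFP36 had 166, 228 and 58.9 CPM under 5% and 245, 197 and 175 CPM at 20% or more, and IER2 had 329, 427 and 385 CPM and 465, 417 and 656 CPM, so both were higher in replicates 1 and 3 and lower in replicate 2. Fos had 959, 1153 and 526 CPM under 5% and 778, 701 and 701 CPM at 20% or more, lower in replicates 1 and 2 and higher in replicate 3. The 4349 barcodes at 20% or more had median totals of 3010 to 3962 UMIs, and the ranges hold different mixtures of cell classes, whose part in these values was not tested.

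**Figure D5:**
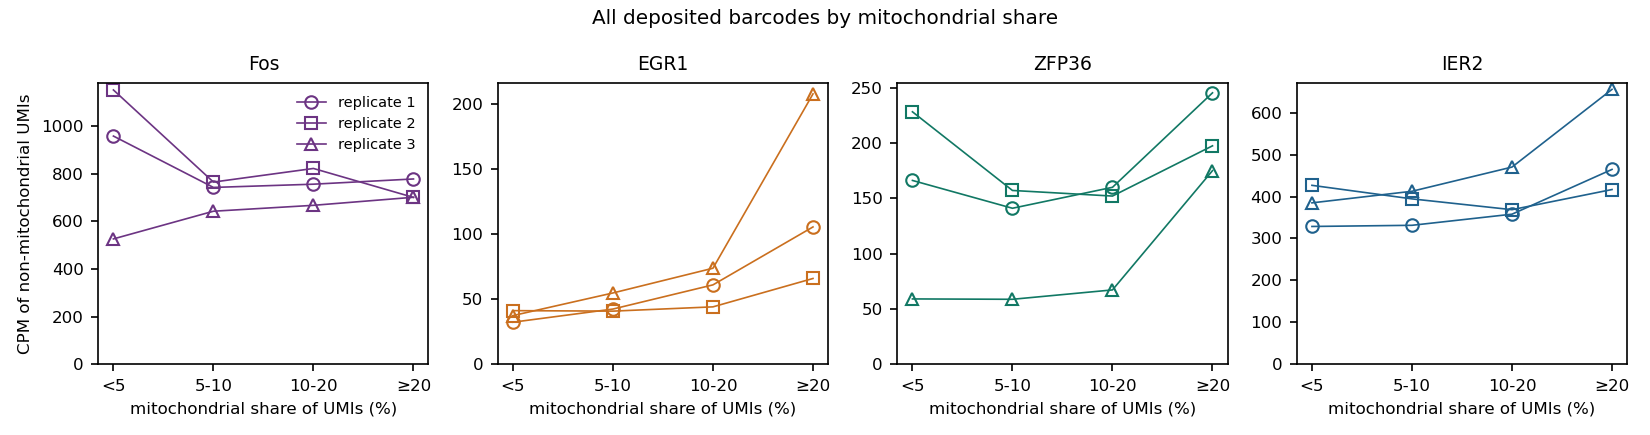
Level of each gene as CPM of non-mitochondrial UMIs in all barcodes of each animal, by mitochondrial share of UMIs (%), 1 line per animal. EGR1 ends at its highest value in each animal (105, 65.8 and 208 CPM), while Fos ends at 701 to 778 CPM from starting values of 526 to 1153.

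In the fibroblast-like class, cluster 4 was the one cluster with at least 5 CPM of Alk (14.2 CPM), the kinase gene named in the inversion, and was compared with clusters 11 and 16 (1.70 and 1.76 CPM). The contrast and the 5 CPM were chosen with earlier results of these data known. All 4 genes were lower in the Alk-high cells, in 3 of 3 animals, beside 47.7% of all genes called. Fos had 1731, 1541 and 1092 CPM in the other fibroblast-like cells and 567, 457 and 542 CPM in the Alk-high cells (−1.57 ± 0.14, edgeR adjusted p = 2.3e-05). EGR1 had 159, 139 and 151 CPM against 51.0, 38.1 and 59.3 CPM (−1.73 ± 0.12, edgeR adjusted p = 5.2e-06). ZFP36 had 323, 235 and 82.8 CPM against 53.2, 44.3 and 26.8 CPM (−2.35 ± 0.17, edgeR adjusted p = 6.2e-06), and IER2 had 725, 695 and 781 CPM against 301, 232 and 343 CPM (−1.46 ± 0.11, edgeR adjusted p = 9.5e-06). The CPM of the groups did not overlap for any of the 4 genes, as for 46.6% of all genes. Outside this class, epithelial-like cluster 20 had 15.2 CPM of Alk, and unnamed clusters 22 and 24 had 48.5 and 63.7 CPM. Cluster 20 had 511, 43.9, 58.2 and 266 CPM of Fos, EGR1, ZFP36 and IER2. Epithelial-like clusters 21 and 29 (0 and 2.34 CPM of Alk) had 421 and 413 CPM of Fos and 29.6 and 21.0 of EGR1. Their ZFP36 was 45.6 and 53.8 CPM and their IER2 295 and 313 CPM. These levels were not tested.

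The Alk-high cells were deeper, with median totals of 19914, 16601.5 and 15576 UMIs against 5819, 5519.5 and 4916, and had lower mitochondrial shares, 6.24%, 5.43% and 7.42% against 7.94%, 7.33% and 8.86%. With equal numbers of cells matched on UMIs in each animal (155 to 218 a side, medians of 6696 to 7126 UMIs), the differences were −1.72 for Fos, −1.79 for EGR1, −2.61 for ZFP36 and −1.38 for IER2, all called beside 31.1% of genes. Mitochondrial shares still differed in the matched cells (5.38%, 5.01% and 6.59% against 7.70%, 7.35% and 9.06%), and their part was not tested. Of the other listed genes 37 of 49 tested were lower and 6 higher, beside 23.5% lower and 24.3% higher over all genes. Their median was −0.98 against −0.01 over all genes. With matched cells 35 of 45 were lower and 3 higher, beside 16.6% lower and 14.4% higher over all genes. All 11 other immediate early genes were lower, led by ID2 at −2.43, ID3 at −2.31 and BTG2 at −2.19, as were all 6 EGR and NR4A genes, led by EGR3 at −2.13, NR4A1 at −1.99 and EGR2 at −1.44, and all 3 mRNA decay genes (10, 5 and 2 of these lists with library totals), ZFP36L1 at −2.49, ZC3H12A at −1.28 and ZFP36L2 at −0.58. Of the AP-1 genes BATF (−1.83) and FOSB (−1.51) were lower and FOSL1 (1.85) higher, and GADD45B (−1.61), NFKBIZ (−1.11) and SOCS3 (−0.997) led the feedback genes. The ZFP36 targets split, with CSF2 at 5.10 and IL10 at 1.56 higher and IL1B at −1.23 lower. HSPB1 (−1.55) and DNAJB1 (−1.14) were lower and HSPD1 (0.94) higher, and of 4 serum response genes 0 were called by edgeR or by DESeq2, or had an unadjusted p under 0.05 by either.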

How the data were processed

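The authors deposited 10x matrices for 3 libraries, whose values are raw UMI counts with cell barcodes as columns. Cell Ranger is named as version 8.0.0 in the submitters' processing notes and as 7.1.0 per the file headers, and the genome build is not given in the sources used here. Of 23189 features 11611 have no symbol.

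Cells with at least 1000 UMIs, 500 genes and under 20% mitochondrial UMIs were kept, and 464 with a scrublet score of at least 0.2 were removed, since the automatic threshold marked 5 of 25044 cells. Cells were clustered on 2000 variable genes without the members, the listed genes or 13 mitochondrial genes (scanpy 1.11.5, 30 components, 20 neighbours, Leiden resolution 1). Clusters were named from fixed markers. A rule that leaves clusters with leading genes of a second class unnamed was set after seeing the data. Counts were summed per animal and class, or side of a division, and fitted in edgeR 4.0.16 with TMM factors, filterByExpr and the animal as a blocking term. Its quasi-likelihood test was adjusted by Benjamini-Hochberg over all genes, with a threshold of 0.05. The block pairs sums from the same animal. The tests were run on simulated sums with known changes, drawn without animal effects and without clustering. They therefore do not check the block or the reuse of counts. Of 100 genes changed by a log2 of 1, 94 were recovered between myeloid and lymphoid classes. By depth 50 were recovered, by mitochondrial share 58 and for Alk-high cells 44.

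Genes of the lists were named where called with 1 direction in 3 of 3 animals, at most 3 per list and comparison by size. The members and lists were chosen with earlier results of these data known. Alternatives were DESeq2 1.42.0, its size factors, other filters, thinning, and each animal left out. Library totals and divisions within clusters were added after seeing the data.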

Additional observations from a re-analysis of the deposited data

Results flagged for a closer look

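The relation of each gene with depth and with mitochondrial share differed between cell classes, by a test of the difference over classes (edgeR adjusted p, animals as block). For deep against shallow cells the adjusted p was 6.22e-09 for Fos, 1.36e-07 for ZFP36, 1.5e-05 for IER2 and 7.14e-05 for EGR1, beside 26.1% of all genes called. For cells of high against low mitochondrial share it was 2.2e-06 for Fos, 1.11e-05 for ZFP36, 3.42e-05 for EGR1 and 0.00148 for IER2, beside 17.5%. Divided within clusters, the depth test was no longer called for IER2 and EGR1 (edgeR adjusted p = 0.052 and 0.21, beside 6.94% of genes). The mitochondrial test was no longer called for ZFP36 and IER2 (edgeR adjusted p = 0.12 and 0.64, beside 3.92%). The other 2 genes were still called within clusters in each test. Fos was lower in deep cells of the T-like class and higher in deep cells of the epithelial-like class, in 3 of 3 animals each. The classes differ in depth and in mitochondrial share, and the part of either in these differences was not tested.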

How the results depend on the processing

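The number of the 4 genes called moved by more than 1.5 times in 3 of 6 comparisons. Between myeloid and lymphoid classes 4 were called, 2 with no replicate block and 2 with a minimum of 2000 UMIs, and leaving out each replicate in turn gave 2 to 4. Between deep and shallow cells 4 were called, and 1 with no replicate block. Between cells of high and low mitochondrial share 2 were called, against 1 with library totals without TMM, 1 with a mitochondrial limit of 10% and 1 with the division made within each cluster. With no replicate block 0 were called by edgeR there, with 0 at an unadjusted p under 0.05, and DESeq2 with the block called 2. Leaving out each replicate gave 1 to 2. The block pairs sums of the same animal.

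Between structural and lymphoid classes Fos crossed 0, at 0.0855 with DESeq2, 0.0851 with DESeq2 size factors, 0.68 with library totals, 0.0771 with a minimum of 2000 UMIs, 0.34 with a mitochondrial limit of 10% and 0.0259 with no doublet removal, and leaving out each replicate gave −0.32 to 0.11. IER2 crossed 0 there at 0.30 with library totals and 0.0267 with the mitochondrial limit of 10%. Between structural and myeloid classes EGR1 crossed 0, at 0.0475 with DESeq2, 0.0340 with its size factors, 0.27 with library totals, 0.22 with a minimum of 2000 UMIs, and 0.0397 with thinned cells, and leaving out each replicate gave −0.23 to 0.0886. By mitochondrial share ZFP36 and IER2 crossed 0 at 0.0230 and 0.0782 with library totals. The cause was not tested. By mitochondrial share IER2 gained a call with thinned cells (−0.24, edgeR adjusted p = 0.015, against 0.12). Over single genes, 322 of 364 values under an alternative kept direction and side of the threshold.

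Over all genes 6346 were called by depth and 4044 by mitochondrial share, and 487 and 4 with no replicate block. Thinning to 2000 UMIs gave 4011 and 1887 there, and 3852, 4521 and 4462 against 6491, 7719 and 7567 between classes. By mitochondrial share DESeq2 gave 2476, the limit of 10% gave 2022 and leaving out replicate 2 gave 2221, and by depth leaving out replicate 1 gave 3244. For Alk-high cells 5363 were called, 3476 with no replicate block, 2531 with thinned and 2694 with matched cells. Depth limits some levels, such as that of EGR1 in B-like cells of replicate 3, which rests on 7 UMIs.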
